A study of Mus musculus with 10 samples.

Results

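The 32 genes described here encode the machinery that makes, senses and removes cyclic AMP (cAMP). They were chosen by symbol, from a list of cyclases, protein kinase A (PKA) subunits, phosphodiesterases and their partners, and all 32 were found among the 24475 genes of the deposited table. The values come from RNA sequencing of islets of C57BL/6 mice. Of 10 libraries, 5 (numbered 1 to 5) came from mice that had received REGN1193, which blocks the receptor for glucagon (GCGR), and 5 (numbered 6 to 10) from mice that had received an isotype control antibody. Islets were purified on a density gradient and are mixtures of endocrine cells, so that fewer cells of a type and less RNA per cell cannot be told apart in these values. The labels do not say whether each library came from a separate animal, and p-values measure the spread between libraries, which may be technical.

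The cascade starts at receptors such as GCGR and the GLP-1 receptor, which act through the stimulatory G protein Gs. Gs switches on adenylyl cyclases, which turn ATP into cAMP; cAMP then releases the catalytic subunits of PKA from their regulatory subunits and opens the exchange factors called Epac. PKA phosphorylates the transcription factor CREB, and phosphodiesterases break cAMP down. In beta cells the cascade strengthens glucose-stimulated insulin secretion, and in hepatocytes it carries the action of glucagon.

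No member passed the test. At an adjusted p under 0.05 in limma, a moderated linear model fitted across all 13450 tested genes, 0 of the 28 tested members were called higher and 0 lower in antibody islets, against 0.394% and 0.0149% of all tested genes. At an unadjusted p under 0.05 in limma, 2 members were higher, Pde8b and Gnas, against 2.84% of all tested genes, and 0 were lower, against 4.18%. In 1 member, Pde8b, all antibody libraries lay above all isotype libraries (1.14% of all tested genes), and in 0 members all lay below (0.84% of all tested genes). Pde8b encodes a phosphodiesterase with high affinity for cAMP, and Gnas encodes the alpha subunit of Gs.

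The other members differed little relative to their spread. The scale is log2(RPKM + 0.5), where RPKM is the read number scaled by transcript length and library size. Of all 28 tested members, Pde8b and Gnas included, 12 were above 0 and 16 below 0 in antibody relative to isotype islets. Their median log2 fold change was -0.03, beside -0.07 over all tested genes, of which 66.5% were below 0. The members' median turned to 0.04 under median centring, 0.01 under quantile normalization and 0.03 under trimmed mean scaling, so no common direction is given for them. In 26 of the 28 tested members the log2 fold change was under 0.3 in size. The 95% interval stayed within 1.5-fold in either direction for 21 members and reached beyond it for 7. The 4 members that were not tested, Adcy1, Adcy5, Adcy8 and Ppargc1a, averaged under 0.5 RPKM over the 10 libraries.

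**Figure D1:**
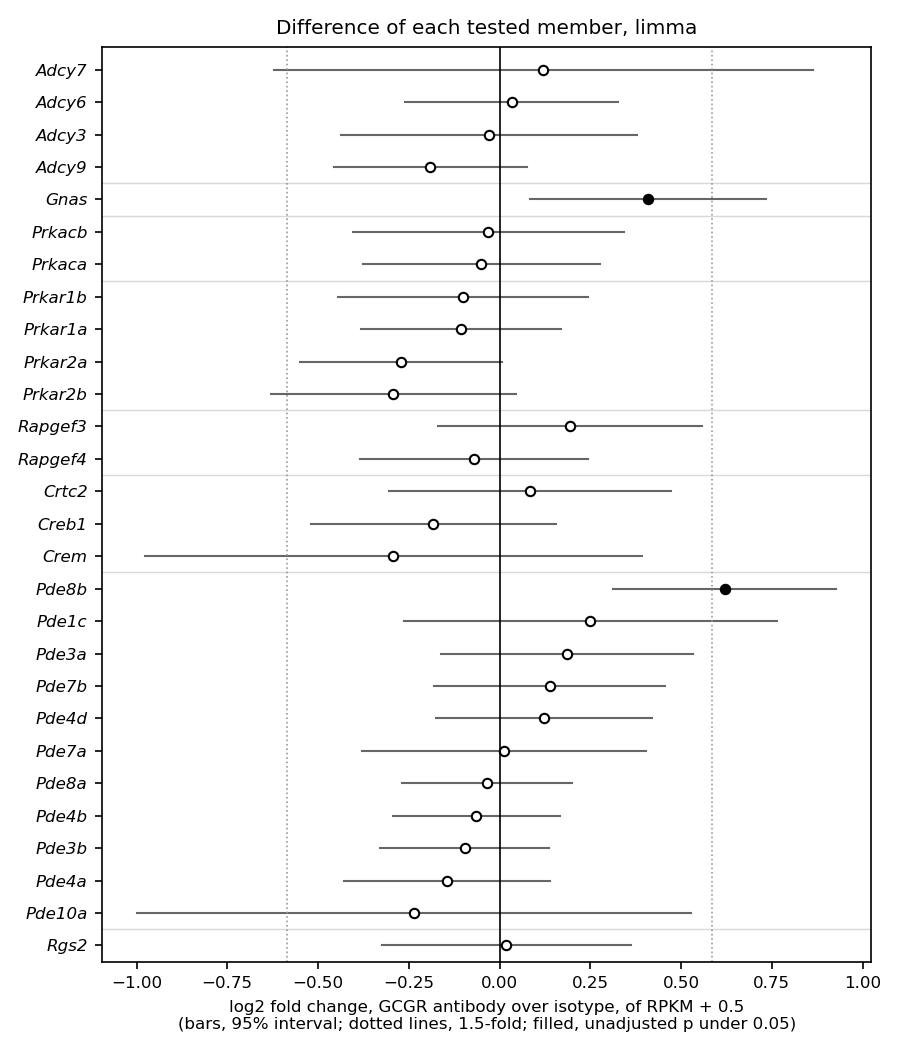
The plot gives the log2 fold change of RPKM + 0.5, GCGR antibody over isotype, of the 28 tested members by role, with limma's 95% interval as bars and dotted lines at 1.5-fold. Pde8b at 0.62 and Gnas at 0.41 are the filled points (unadjusted p under 0.05), and the intervals of the other 26 members cross 0.

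Promoter sequence is shown for the members whose values stood furthest apart, and for Prkar1a. Among the members with an available window, Prkar1a was alone in holding the full cAMP response element (CRE), the palindrome TGACGTCA to which CREB binds. Sequences are RefSeq windows of GRCm38.p6 running from 250 bases before to 50 after an annotated start, given 5′ to 3′ on the gene's strand. Capitals mark the full element or its core TGACG on either strand, and each full element contains the core on both strands. Pde8b lies on the minus strand of chromosome 13, where the window of an upstream start (chr13:95250287-95250586) has no match and that of an inner start (chr13:95223001-95223300) has 1 core, beginning 39 bases into the transcript. The Gnas window shown, 1 of 4 (chr2:174329756-174330055, plus strand) has 1 core on the opposite strand, 211 bases before the start. In the Prkar1a window (chr11:109650612-109650911, plus strand) the full element begins 39 bases into the transcript, and another core ends 95 bases before the start. The same full element ends 41 bases before a neighbouring annotated start (chr11:109650699-109650998).
Pde8b upstream start: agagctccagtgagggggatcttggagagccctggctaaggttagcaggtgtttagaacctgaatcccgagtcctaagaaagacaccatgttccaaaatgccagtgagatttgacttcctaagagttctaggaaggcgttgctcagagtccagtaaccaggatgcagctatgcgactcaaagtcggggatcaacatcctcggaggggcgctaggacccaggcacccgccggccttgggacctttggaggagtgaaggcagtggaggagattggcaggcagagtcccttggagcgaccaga
Pde8b inner start: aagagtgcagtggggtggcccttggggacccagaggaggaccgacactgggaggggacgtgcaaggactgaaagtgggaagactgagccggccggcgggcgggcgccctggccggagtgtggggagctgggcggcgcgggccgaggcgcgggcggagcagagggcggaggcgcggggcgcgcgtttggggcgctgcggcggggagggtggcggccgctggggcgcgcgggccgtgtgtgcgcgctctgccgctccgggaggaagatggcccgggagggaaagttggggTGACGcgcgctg
Gnas: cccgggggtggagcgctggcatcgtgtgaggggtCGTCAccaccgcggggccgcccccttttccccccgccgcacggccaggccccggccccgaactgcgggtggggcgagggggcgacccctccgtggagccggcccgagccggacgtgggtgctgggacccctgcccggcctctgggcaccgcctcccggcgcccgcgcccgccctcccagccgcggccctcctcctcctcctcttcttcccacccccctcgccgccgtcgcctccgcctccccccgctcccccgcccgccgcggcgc
Prkar1a: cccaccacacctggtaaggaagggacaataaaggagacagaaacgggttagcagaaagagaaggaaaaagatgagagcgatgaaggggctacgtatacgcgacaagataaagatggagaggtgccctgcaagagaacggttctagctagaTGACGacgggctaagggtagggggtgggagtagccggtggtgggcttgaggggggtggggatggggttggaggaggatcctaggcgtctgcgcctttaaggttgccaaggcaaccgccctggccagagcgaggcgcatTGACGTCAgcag

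Windows were available for 25 of the 32 members, 56 windows in all. Adcy6, Adcy8, Crem, Crtc2, Pde3a, Pde3b and Pde7a had no window in the reference used here and were not examined. The full element was in 2 of the 56 member windows (3.57%), both overlapping windows of Prkar1a, and in 588 of all 32851 mouse windows (1.79%). The core was in 19 member windows (33.9%), and in 20.8% of all windows. By gene, 15 of the 25 members (60%) and 23.0% of all genes with windows had it in at least 1 window. These 2 shares are not alike: the members had 56 windows for 25 genes, and all genes had 32851 windows for 27025 genes. More windows per gene give more chances of a match, and some member windows overlap. A match is a string of letters and was not tested as a binding site.

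Within the islets the members spanned a wide range of RPKM, which is scaled by length. The length used for each gene is not known, and annotated transcripts of some members differ widely (Creb1, 1287 to 8364 bases). Comparisons of level between genes depend on that length. Averaged over the 10 libraries, Gnas stood at 795 RPKM, Prkar1a at 181 RPKM and Prkacb at 126 RPKM, and these 3 were the members over 100 RPKM. Another 12 lay between 10 and 100 RPKM, 9 between 1 and 10 RPKM, and 8 under 1 RPKM.

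**Figure D2:**
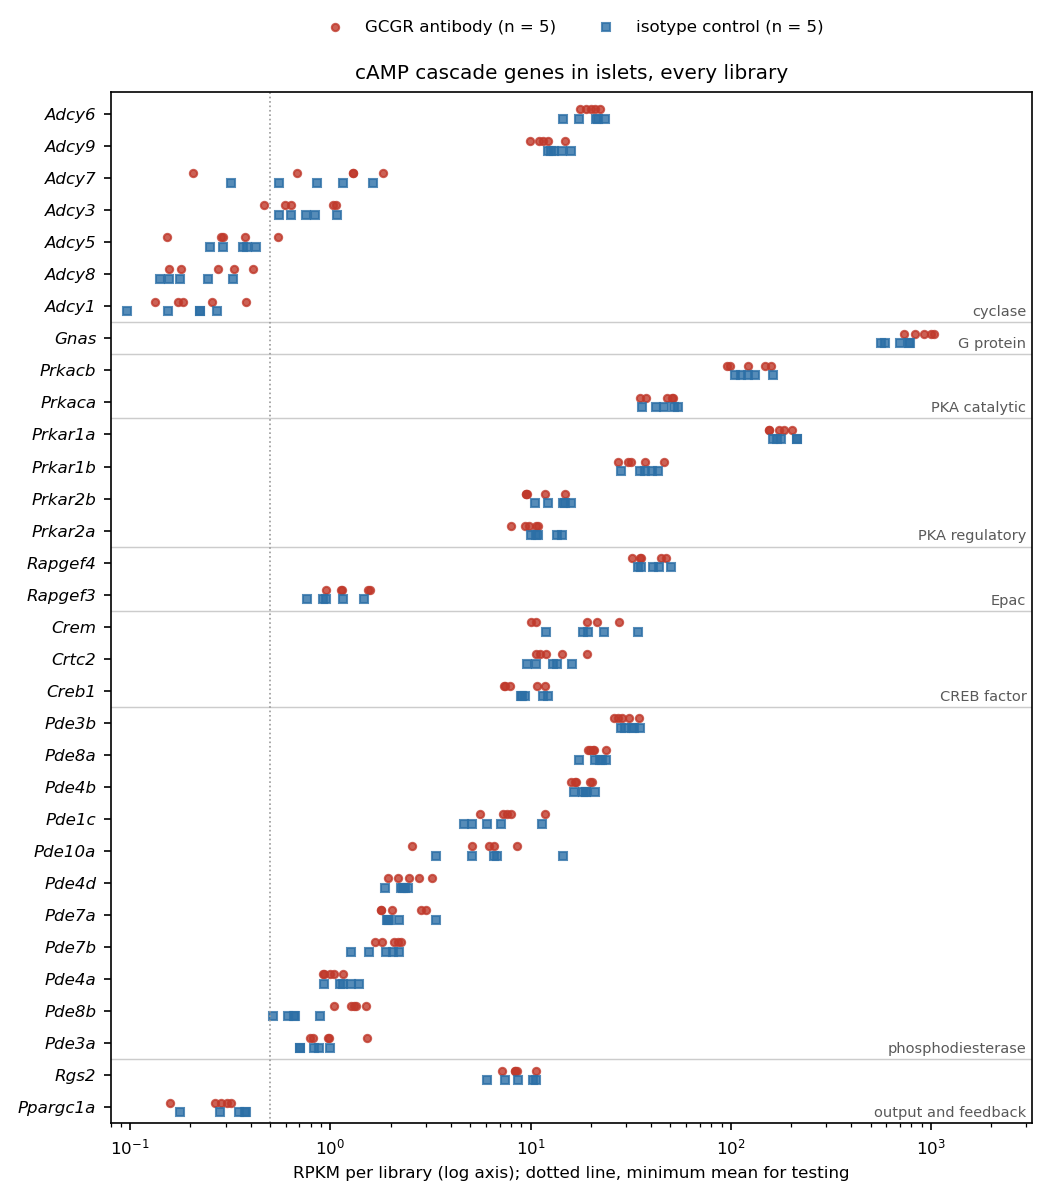
Each point is 1 library's RPKM on a log axis, with the 5 GCGR antibody libraries as circles drawn above the 5 isotype libraries as squares, and genes sorted by level within each role. Gnas is the highest at 566 to 1039 RPKM over the 10 libraries, and the groups overlap in every member except Pde8b.

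Gnas, the Gs alpha gene (chr2:174284320-174346744, GRCm38.p6), had 834, 997, 1039, 926 and 738 RPKM in antibody libraries 1 to 5, against 591, 791, 775, 698 and 566 RPKM in isotype libraries 6 to 10. The lowest antibody library, number 5, lay below isotype libraries 7 and 8, and the other 4 antibody libraries lay above every isotype library. The means were 907 ± 122 RPKM in antibody islets and 684 ± 103 RPKM in isotype islets (SD, n = 5 each). The log2 fold change was 0.41 (SE 0.15, 95% interval 0.08 to 0.74), with an adjusted p of 0.564 in limma and a two-sided exact permutation p of 0.0238. The annotation places the antisense gene Gnasas1 and the long noncoding Gm30189 within the Gnas locus. Because the library kit does not mark the strand, their reads cannot be told apart from those of Gnas where they overlap. The value is also for the whole gene, which has several annotated starts and transcripts of 1427 to 3947 bases. These transcripts were not separated, so the level cannot be read as Gs alpha RNA alone.

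Alpha cell markers moved in the same direction. Of 11 alpha cell genes, all tested, 8 were called higher in antibody islets and 10 were above 0, with a median log2 fold change of 1.16; their summed level was 55173 to 84281 RPKM in antibody libraries and 10198 to 18186 RPKM in isotype libraries. All 12 beta cell genes were below 0 (11 under each of 3 other scalings) and 0 were called, with sums of 199314 to 356581 RPKM in antibody libraries and 298786 to 472840 RPKM in isotype libraries. Delta cell (4 of 4 genes) and PP cell (2 of 2 genes) markers were above 0 and 0 were called. All 13 acinar genes were below 0 (12 under median centring), with 0 called, and their sums of 4089 to 13283 RPKM in antibody libraries overlapped the 3122 to 17930 RPKM in isotype libraries. Of 9 tested ductal genes, 5 were above 0 and 4 below 0, and 0 were called. No defining alpha or beta cell marker was at 0 in any library. The part of these markers in the values of Gnas, Pde8b or any other member was not tested.

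Of the 7 adenylyl cyclases among the members, Adcy6 and Adcy9 made up nearly all of the summed RPKM; 3 further cyclases in the table, Adcy2, Adcy4 and Adcy10, averaged 0.282, 0.487 and 0.0148 RPKM over the 10 libraries. Adcy6, a form inhibited by calcium, had 22.2, 18.8, 21.0, 20.1 and 17.7 RPKM in antibody libraries and 17.5, 21.2, 14.5, 23.6 and 21.7 RPKM in isotype libraries. The isotype libraries spread to both sides of the antibody ones, and the log2 fold change was 0.03 with a 95% interval of -0.26 to 0.33. Adcy9, a widely expressed form that responds poorly to forskolin, had 11.6, 9.98, 11.0, 14.9 and 12.2 RPKM in antibody libraries and 15.9, 13.1, 12.6, 14.4 and 12.2 RPKM in isotype libraries. The groups overlapped, and the log2 fold change of -0.19 had a 95% interval of -0.46 to 0.08. Adcy6 held 57.7% ± 2.91 of the summed cyclase RPKM in antibody islets and 54.7% ± 5.52 in isotype islets (SD, n = 5 each), and Adcy9 held 34.5% ± 4.56 in antibody islets and 38.4% ± 4.99 in isotype islets.

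The remaining cyclases were near the lower limit. Adcy3, known from olfactory neurons, averaged 0.759 ± 0.271 RPKM in antibody islets and 0.774 ± 0.204 RPKM in isotype islets. The calcium-stimulated forms Adcy1 and Adcy8 averaged 0.226 and 0.270 RPKM in antibody islets, and 0.194 and 0.209 RPKM in isotype islets. Adcy5, the closest relative of Adcy6, averaged 0.330 ± 0.145 RPKM in antibody islets and 0.343 ± 0.0717 RPKM in isotype islets.

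Adcy7, a form abundant in blood cells, had the widest spread of the tested cyclase members. It had 1.30, 1.83, 0.679, 0.207 and 1.30 RPKM in antibody libraries and 0.318, 0.856, 1.63, 0.553 and 1.16 RPKM in isotype libraries. Library 4 was the lowest of the antibody group and library 6 the lowest of the isotype group, while libraries 2 and 8 were the highest. Csf1r, the receptor that marks macrophages, was likewise lowest in library 4 among antibody libraries (0.881 RPKM) and in library 6 among isotype libraries (1.60 RPKM), and highest in libraries 2 (9.26 RPKM) and 8 (9.06 RPKM). The whole list of 8 macrophage and lymphocyte genes (7 tested, 0 called) summed to 49.1 to 607 RPKM in antibody libraries and 84.9 to 505 RPKM in isotype libraries, lowest in libraries 4 and 9 and highest in libraries 2 and 8. Its part in the Adcy7 values was not tested. Adcy7 overlaps the protein-coding gene Brd7, as Adcy3 overlaps Cenpo and Prkar1b overlaps Dnaaf5. The reads of such pairs cannot be told apart where the genes overlap. The log2 fold change of Adcy7 was 0.12 with a 95% interval of -0.62 to 0.86.

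PKA catalytic subunits came from Prkacb and Prkaca. Prkacb had 122, 96.4, 99.5, 158 and 149 RPKM in antibody libraries and 163, 105, 112, 121 and 133 RPKM in isotype libraries. Prkaca had 38.0, 51.0, 51.6, 48.0 and 35.1 RPKM in antibody libraries and 42.3, 54.8, 46.4, 51.9 and 36.0 RPKM in isotype libraries. The groups overlapped throughout in both genes. The log2 fold change was -0.03 for Prkacb (95% interval -0.40 to 0.34) and -0.05 for Prkaca (95% interval -0.38 to 0.28). Both signs turned positive under median centring, quantile normalization and trimmed mean scaling, so no direction is given for either. Prkacb held 73.0% of the catalytic RPKM in antibody islets and 72.9% in isotype islets.

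All 4 PKA regulatory subunits were below 0, and 0 of them passed the test. Prkar1a, the main type I subunit, had 203, 185, 174, 155 and 155 RPKM in antibody libraries and 177, 170, 162, 214 and 215 RPKM in isotype libraries. Its log2 fold change was -0.11 with a 95% interval of -0.38 to 0.17. Prkar2a, a type II subunit that docks on anchoring proteins, had 10.6, 9.80, 9.42, 7.98 and 10.9 RPKM in antibody libraries and 10.03, 10.9, 10.7, 13.5 and 14.3 RPKM in isotype libraries. Isotype libraries 9 and 10 lay above all antibody libraries, antibody libraries 2, 3 and 4 lay below all isotype libraries, and the others overlapped. The log2 fold change of Prkar2a was -0.27 (SE 0.13, 95% interval -0.55 to 0.01), with an adjusted p of 0.720 in limma. Prkar2b, the other type II subunit, averaged 11.1 ± 2.39 RPKM in antibody islets and 13.6 ± 2.18 RPKM in isotype islets, a log2 fold change of -0.29 (95% interval -0.63 to 0.04). Prkar1b averaged 34.7 ± 7.51 RPKM in antibody islets and 37.0 ± 5.71 RPKM in isotype islets.

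The balance of PKA subunits is given without a test. The catalytic genes summed to 170 ± 24.9 RPKM in antibody islets and 173 ± 18.9 RPKM in isotype islets, and the regulatory genes to 230 ± 19.4 RPKM in antibody islets and 250 ± 26.8 RPKM in isotype islets (SD, n = 5 each). Catalytic RPKM per regulatory RPKM was 0.748 ± 0.154 in antibody islets and 0.696 ± 0.0881 in isotype islets. Antibody libraries 4 and 5, at 0.919 and 0.911, were the highest of the 10 libraries, and the other 3 antibody libraries, at 0.625 to 0.657, lay inside the isotype range of 0.613 to 0.830.

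**Figure D3:**
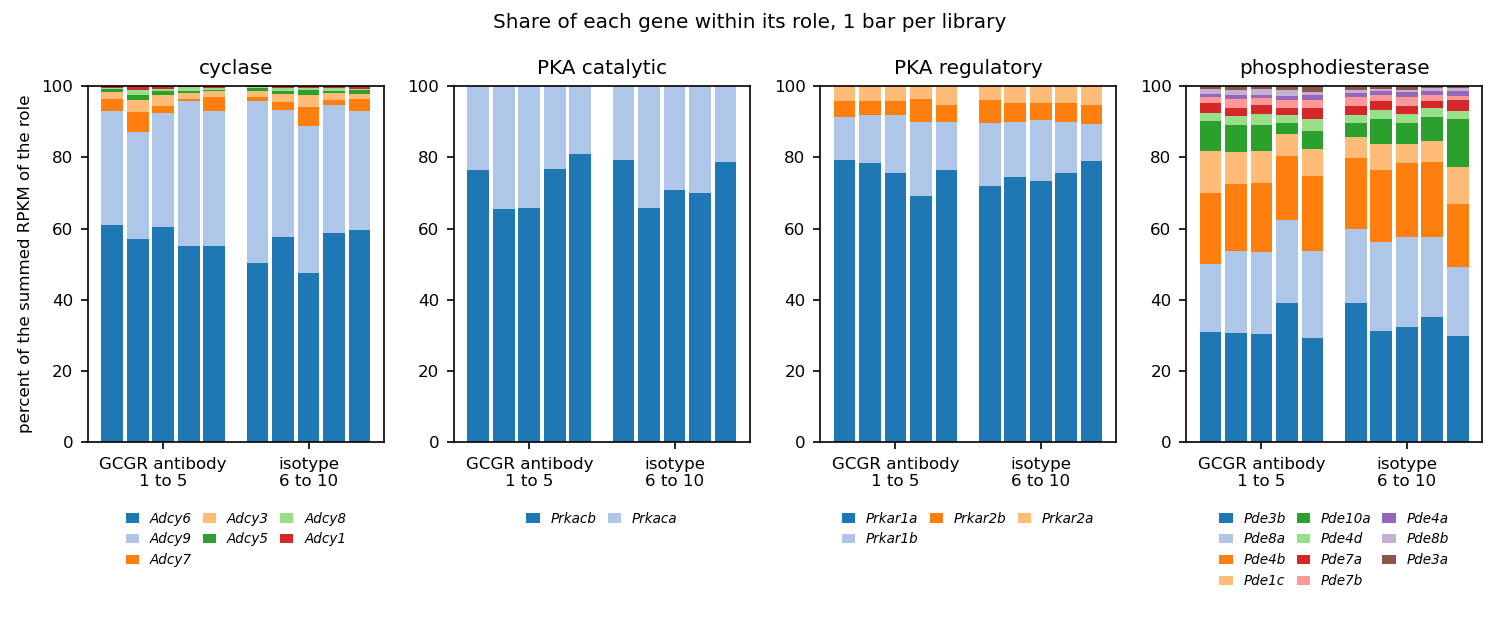
Each bar is 1 library, GCGR antibody libraries 1 to 5 left of isotype libraries 6 to 10, and its segments give each gene's percent of the summed RPKM of its role. Adcy6 and Adcy9, Prkacb, Prkar1a, and Pde3b with Pde8a and Pde4b fill most of each bar in both groups.

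Epac transcripts were almost all Rapgef4, which encodes Epac2, the form that couples cAMP to insulin granule release. Rapgef4 had 44.8, 35.0, 35.8, 32.3 and 47.6 RPKM in antibody libraries and 34.3, 40.9, 35.6, 43.9 and 50.4 RPKM in isotype libraries. The groups overlapped, with a log2 fold change of -0.07 (95% interval -0.38 to 0.24). Rapgef3, which encodes Epac1, had 1.54, 1.15, 1.58, 1.13 and 0.954 RPKM in antibody libraries and 0.762, 1.48, 1.16, 0.950 and 0.914 RPKM in isotype libraries. Antibody libraries 1 and 3 were the highest, the groups overlapped, and the log2 fold change was 0.19 (95% interval -0.17 to 0.56). Rapgef4 held 96.8% of Epac RPKM in antibody islets and 97.5% in isotype islets.

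Crem had the highest mean RPKM of the CREB genes and was the one that varied most between libraries of the same group. It encodes activators and, from an inner promoter, the repressor ICER. Crem had 27.7, 21.4, 19.3, 10.004 and 10.7 RPKM in antibody libraries and 12.0, 19.5, 18.3, 23.3 and 34.6 RPKM in isotype libraries. Antibody libraries 4 and 5 and isotype library 6 were low, and the log2 fold change of -0.29 had a 95% interval of -0.98 to 0.39. Creb1, which encodes CREB itself, had 10.8, 7.41, 7.45, 7.90 and 11.8 RPKM in antibody libraries and 12.2, 9.41, 9.05, 8.97 and 11.6 RPKM in isotype libraries. The antibody group held the 3 lowest values, but the ranges overlapped, and the log2 fold change was -0.18 (95% interval -0.52 to 0.15). Crtc2, a CREB coactivator, averaged 13.5 ± 3.47 RPKM in antibody islets and 12.6 ± 2.57 RPKM in isotype islets, a log2 fold change of 0.08 (95% interval -0.30 to 0.47).

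The phosphodiesterase members were spread over more genes, and the shares given here are within these 11 genes. They leave out Pde5a, which acts on cGMP and averaged 16.2 RPKM in antibody islets and 24.9 RPKM in isotype islets. Also left out are Pde2a and Pde4c, at 2.25 and 2.13 RPKM over the 10 libraries, and other phosphodiesterases at lower levels. Pde3b, which insulin signalling activates and which limits cAMP in beta cells, had 31.0, 27.5, 26.2, 34.8 and 28.5 RPKM in antibody libraries and 32.8, 29.6, 28.2, 35.2 and 32.2 RPKM in isotype libraries. The ranges overlapped, with a log2 fold change of -0.10 (95% interval -0.33 to 0.14). Pde3b held 32.1% ± 3.98 of the summed phosphodiesterase RPKM in antibody islets and 33.5% ± 3.68 in isotype islets. Pde8a, the close relative of Pde8b, held 22.6% in antibody islets and 22.7% in isotype islets, and Pde4b, of the cAMP-specific PDE4 family, held 19.4% in antibody islets and 19.8% in isotype islets. The 11 phosphodiesterase members summed to 92.4 ± 6.14 RPKM in antibody islets and 94.9 ± 9.72 RPKM in isotype islets (SD, n = 5 each).

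Pde8b (chr13:95024105-95250401, GRCm38.p6) had 1.35, 1.32, 1.27, 1.503 and 1.042 RPKM in antibody libraries and 0.661, 0.519, 0.666, 0.617 and 0.893 RPKM in isotype libraries. The groups did not overlap: the lowest antibody library, number 5, stood above the highest isotype library, number 10. Mean RPKM was 1.30 ± 0.167 in antibody islets and 0.671 ± 0.137 in isotype islets (SD, n = 5 each), 1.93-fold higher in antibody islets. On the log2(RPKM + 0.5) scale, which understates the change of such low values, the log2 fold change was 0.62 (SE 0.14, 95% interval 0.31 to 0.93). The adjusted p was 0.136 in limma. The two-sided exact permutation p was 0.00794, the smallest that this design can give. Any gene whose groups do not overlap reaches that value, and it is not adjusted for the number of genes. By the estimated depths, each Pde8b value rests on 26 to 92 reads. Its adjusted p moved between 0.0107 and 0.365 over 22 alternative settings and passed 0.05 in 3 of them. Pde8b overlaps the long noncoding gene Gm41025, whose reads cannot be told apart from its own where they overlap. Pde8b held 1.41% ± 0.227 of the summed RPKM of the 11 phosphodiesterase members in antibody islets and 0.708% ± 0.121 in isotype islets.

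**Figure D4:**
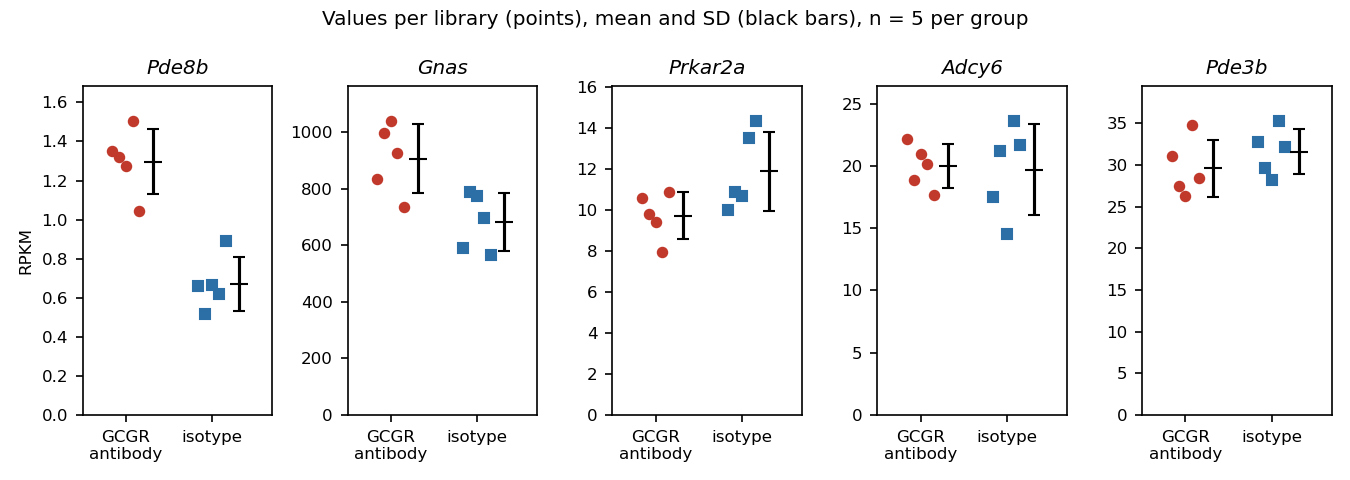
Points are RPKM per library, GCGR antibody left of isotype, with black bars for mean and SD (n = 5 per group), and each vertical axis starts at 0. The Pde8b points separate at 1.042 to 1.503 RPKM in antibody libraries and 0.519 to 0.893 RPKM in isotype libraries, and the points of Gnas, Prkar2a, Adcy6 and Pde3b overlap.

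The other phosphodiesterases among the members had 95% intervals that included 0. Pde1c, activated by calcium and calmodulin, averaged 8.08 ± 2.30 RPKM in antibody islets and 6.86 ± 2.72 RPKM in isotype islets, a log2 fold change of 0.25 (95% interval -0.26 to 0.76). Pde3a, known from heart and oocytes, averaged 1.02 ± 0.294 RPKM in antibody islets and 0.820 ± 0.124 RPKM in isotype islets. In the PDE4 family, Pde4d averaged 2.52 ± 0.499 RPKM in antibody islets and 2.25 ± 0.220 RPKM in isotype islets, and Pde4a averaged 1.01 ± 0.0975 RPKM in antibody islets and 1.17 ± 0.172 RPKM in isotype islets. Of the cAMP-specific PDE7 forms, Pde7a averaged 2.29 ± 0.585 RPKM in antibody islets and 2.27 ± 0.618 RPKM in isotype islets, and Pde7b averaged 2.003 ± 0.2515 RPKM in antibody islets and 1.79 ± 0.379 RPKM in isotype islets. Pde10a, which breaks down both cAMP and cGMP, had 8.53, 6.58, 6.23, 2.57 and 5.08 RPKM in antibody libraries and 3.36, 6.59, 5.09, 6.78 and 14.4 RPKM in isotype libraries.

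Rgs2, a regulator of G protein signalling whose gene is induced by cAMP, had 8.39, 8.58, 8.35, 10.6 and 7.23 RPKM in antibody libraries and 10.3, 6.06, 8.64, 10.7 and 7.44 RPKM in isotype libraries. The antibody libraries lay inside the isotype range, and the log2 fold change was 0.02 (95% interval -0.32 to 0.36). Ppargc1a, a coactivator that cAMP induces in fasting liver, averaged 0.266 ± 0.0636 RPKM in antibody islets and 0.311 ± 0.0844 RPKM in isotype islets, below the level tested.

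Members differed in how much they varied between libraries of the same group. The within-group SD on the log2 scale was widest for Pde10a (0.65), Adcy7 (0.61), Crem (0.58) and Pde1c (0.43) and narrowest for Pde4a (0.12), with a median of 0.23 for the members and 0.25 over all tested genes. Pde10a, Crem, Pde7a, Rapgef4 and Prkar2a were all lowest in antibody library 4 and highest in isotype library 10. Isotype library 10 and antibody library 5 also had the lowest rank correlations with the other libraries over all tested genes, with medians of 0.955 and 0.941, beside 0.961 to 0.9747 for the other 8. Without both libraries, the log2 fold changes of Crem and Pde10a were 0.05 and 0.06, in place of -0.29 and -0.24. Without isotype library 10 alone, Pde10a was at 0.04.

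**Figure D5:**
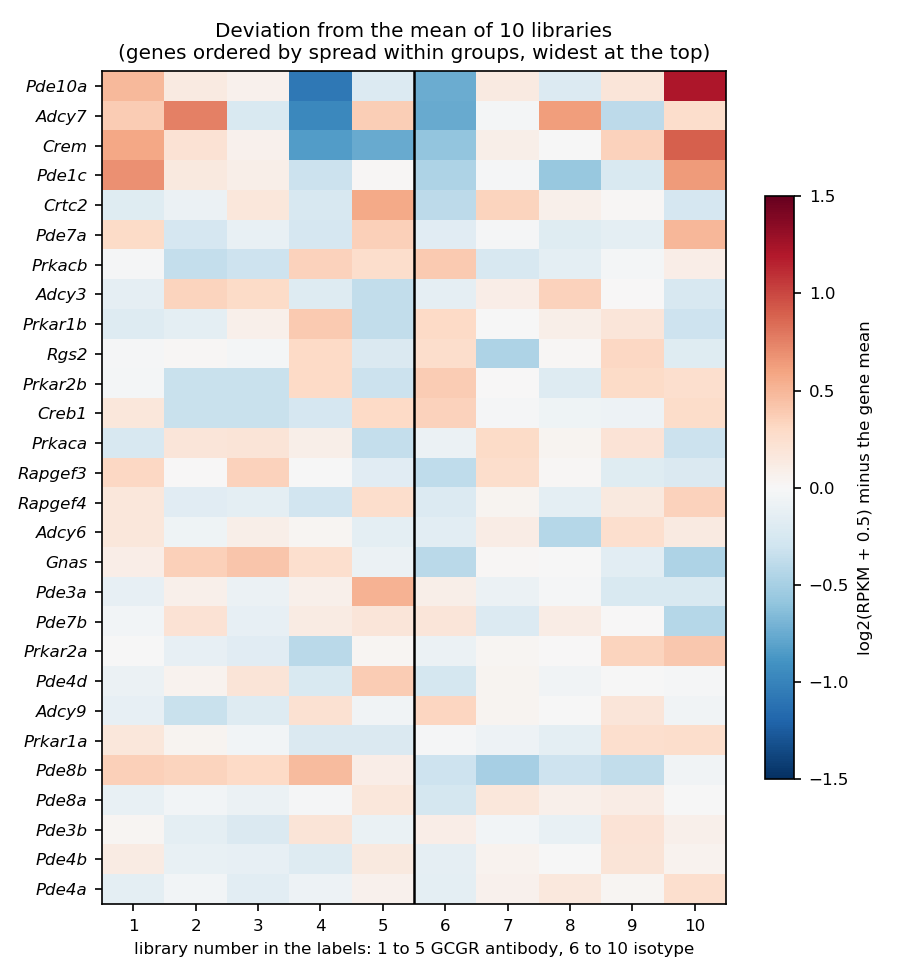
Colours give each library's log2(RPKM + 0.5) minus the gene's mean over the 10 libraries, with GCGR antibody libraries 1 to 5 left of the line and isotype libraries 6 to 10 right of it, and genes sorted by within-group spread. Pde8b is above its mean in all 5 antibody libraries, while Pde10a, Adcy7 and Crem at the top have values above and below their mean in both groups.

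Of 84 other genes of the pathway in 7 lists, 66 were tested, and 1 was called higher and 0 lower in antibody islets. At an unadjusted p under 0.05 in limma, 3 were higher (Sstr2, Gpr119 and Adora2a) and 7 lower (Gcgr, Glp1r, Vipr1, Pde5a, Pde2a, Akap1 and Nfil3), beside 2.84% and 4.18% of all tested genes. The called gene was Sstr2, among the Gi-coupled receptors that hold cAMP down (8 tested). Sstr2, a somatostatin receptor of alpha cells, had 2.64 to 3.31 RPKM in antibody libraries and 0.528 to 1.116 RPKM in isotype libraries, with no overlap. Its log2 fold change was 1.30 (SE 0.14, adjusted p 0.0015 in limma), and the alpha cell markers given above moved the same way. The Gi-coupled receptors next in order of p, Ptger3 and Galr1, were at -0.36 and -0.23.

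Of the 9 Gs-coupled receptors tested, 0 were called. Gpr119, a receptor for lipid amides, had 11.5 to 23.0 RPKM in antibody libraries and 7.25 to 10.9 RPKM in isotype libraries, which do not overlap, with an adjusted p of 0.182 in limma. Gcgr, the target of the antibody, had 7.75 to 15.97 RPKM in antibody libraries and 12.0 to 22.3 RPKM in isotype libraries, a log2 fold change of -0.68 with an adjusted p of 0.375 in limma. Glp1r, the GLP-1 receptor, had 63.7 to 136 RPKM in antibody libraries and 80.8 to 132 RPKM in isotype libraries, a log2 fold change of -0.48 (95% interval -0.94 to -0.03, adjusted p 0.676 in limma). Vipr1, a receptor for vasoactive intestinal peptide, was at -0.23 (95% interval -0.45 to -0.01). Adora2a, an adenosine receptor, had a log2 fold change of 0.41.

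Among 9 other G protein subunits, 0 were called, and the smallest p-values belonged to Gnai3, Gnb5 and Gnai2, with log2 fold changes of -0.24, -0.16 and -0.19. Among 5 other cyclases and phosphodiesterases tested, 0 were called, and Pde5a, Pde2a and Pde4c were at -0.63, -0.47 and -0.31. Pde5a, which breaks down cGMP, had 10.5 to 28.2 RPKM in antibody libraries and 16.6 to 33.2 RPKM in isotype libraries. The 95% interval was -1.21 to -0.06 for Pde5a and -0.91 to -0.04 for Pde2a, with adjusted p of 0.654 and 0.661 in limma. Among 13 PKA inhibitors and anchors, 0 were called, and Akap1, an anchor at mitochondria, was at -0.26. Pkig and Pkib, inhibitors of the catalytic subunit, were at -0.20 and -0.18. Akap5, another anchor, had 19.1 RPKM in antibody library 5 and 16.8 RPKM in isotype library 10. In the other libraries Akap5 had 0.275 to 1.29 RPKM. Libraries 5 and 10 are those with the lowest rank correlations with the rest.

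Downstream of PKA, 0 of 9 CREB relatives, coactivators and salt-inducible kinases were called, with Sik2, Sik1 and Crtc3 at -0.15, -0.58 and -0.08. Of 14 tested CREB target genes, 0 were called and 12 were below 0 (11 under median centring), beside 66.5% of all tested genes. The median log2 fold change of the 14 was -0.35, beside -0.07 over all tested genes. Nfil3, a bZIP repressor, was at -0.54 and Irs2, an adaptor of the insulin receptor, at -0.36, with adjusted p of 0.673 and 0.845 in limma. The list has 16 genes, and the other 2 averaged under 0.5 RPKM and are not in these counts. Bdnf, a neurotrophin gene, was not tested. It had 0.501, 0.760, 0.738, 0.511 and 0.737 RPKM in antibody libraries and 0.314, 0.282, 0.168, 0.251 and 0.4555 RPKM in isotype libraries, which do not overlap. All antibody libraries lay above all isotype libraries in 1.14% of all tested genes. Nr4a3, a nuclear receptor gene, had 0.0529 to 0.980 RPKM in antibody libraries and 0.113 to 0.237 RPKM in isotype libraries. Several of the tested targets varied widely within groups: Fos had 1.30 to 47.2 RPKM in antibody libraries and 1.69 to 54.0 RPKM in isotype libraries. Within their groups, Fos, Egr1 and Junb were each highest in antibody library 2 and isotype library 7, so their signs are not separate observations.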

How the data were processed

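The authors deposited 1 table of RPKM values for 24475 genes, one column for each of the 10 polyA RNA libraries (5 antibody, 5 isotype). Per the labels' protocols, libraries were made with Nextera XT, a kit that does not mark strand. The submitters' processing notes name GRCm38, mm10, CASAVA 1.8.2 and FastQC; for the aligner and counting program, the sources used here name none. Values entered the fit as log2(RPKM + 0.5), with no other scaling, for the 13450 genes averaging at least 0.5 RPKM. Groups were compared with limma 3.58.1 (R 4.3.3, variance trend); p-values were adjusted by the Benjamini-Hochberg method over every gene in the fit and called under 0.05, and single genes also by a two-sided exact permutation test. The fit was tested on simulated data. Python 3.11.15 with pandas 2.3.3 and scipy 1.17.1 gave the other values.

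Depth, estimated from steps in the low values of 15621 genes that have 1 GENCODE M21 transcript length, was 14.6 to 18.1 megareads in antibody libraries and 12.3 to 14.8 megareads in isotype libraries. Between 61.2% and 67.0% of low values lay within 0.1 of a whole read (20% by chance), so reads were not recovered and no count model was fitted. The members and lists were chosen with earlier results of these data known. Every member is named; all library values are given for members called or not overlapping and, in each role, for the highest and the one with the smallest p, and for Adcy7 and Pde10a, chosen after their values were seen. In each pathway list the called genes and the 3 with the smallest p are named. Fos, Egr1, Junb, Akap5, Csf1r, Glp1r, Vipr1, Bdnf, Nr4a3, Adcy2, Adcy4, Adcy10 and the overlapping genes were also named after their values were seen. Alternatives covered scaling, pseudocount, filters, variance models, array weights, marker covariates and leaving out libraries.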

Additional observations from a re-analysis of the deposited data

Results flagged for a closer look

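Within each group of 5 libraries, the gap between the most extreme library and its nearest neighbour was set against the group's range for all 32 members. Of 64 groups examined, 2 passed Dixon's critical value of 0.71, and chance gives about 1 in 20. Pde3a in antibody library 5 was at 1.52 RPKM, with the other antibody libraries at 0.787 to 0.981 RPKM. Pde7a in isotype library 10 was at 3.36 RPKM, with the other isotype libraries at 1.91 to 2.19 RPKM. These are the libraries with the lowest rank correlations with the rest.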

How the results depend on the processing

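The number of members called lower was 0 under every alternative run. The median log2 fold change of the members ran between -0.07 and 0.04, and was above 0 under the 3 other scalings alone. The number called higher was 1 (Pde8b) under median centring, with no variance trend and with array weights, and 0 otherwise; its log2 fold change stayed between 0.46 and 0.87. Over all tested genes, 121 were called higher and 61 lower with array weights, 23 and 0 with a minimum mean of 5 RPKM, and 31 to 50 higher and 0 to 20 lower when single libraries were left out, in place of 53 and 2; the highest count of lower calls came without isotype library 6. The log2 fold change of Gnas stayed between 0.34 and 0.49, never called. Members higher at an unadjusted p under 0.05 in limma numbered 1 with a minimum mean of 5 RPKM, where Pde8b had no value, and 1 to 3 when single libraries were left out (1 without antibody library 3, 3 without isotype library 10). Members lower at that level numbered 4 with array weights, 1 with an acinar covariate, 2 with a ductal covariate, and 0 to 2 over single libraries left out.

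Several log2 fold changes changed sign, most of them near 0 but Crem and Pde10a from -0.29 and -0.24, and the cause was not tested. Under median centring, Adcy3 was 0.0481, Prkaca 0.0269, Prkacb 0.0463, Rapgef4 0.0064, Pde4b 0.0128 and Pde8a 0.0419. Under quantile normalization, Prkaca was 0.0153, Prkacb 0.0063, Rapgef4 0.0014, Pde4b 0.0085 and Pde8a 0.0356. With trimmed mean scaling, Adcy3 was 0.0314, Prkaca 0.0103, Prkacb 0.0296 and Pde8a 0.0253. With array weights, Adcy3 was 0.0964, Crtc2 -0.0806 and Pde7a -0.0491. With the acinar covariate, Adcy6 was -0.0723, Prkacb 0.0727 and Rgs2 -0.0545; with the ductal covariate, Adcy3 was 0.0285 and Rgs2 -0.0516. Without antibody library 5 and isotype library 10 together, an alternative chosen after seeing the data, Crem was 0.0477, Crtc2 -0.0984 and Pde10a 0.061. When single libraries were left out, the ranges were -0.1146 to 0.059 for Adcy3, -0.0676 to 0.1021 for Adcy6, -0.0546 to 0.3784 for Adcy7, -0.1355 to 0.0318 for Prkaca, -0.1224 to 0.0631 for Prkacb, -0.1449 to 0.0068 for Rapgef4, -0.0469 to 0.1773 for Crtc2, -0.077 to 0.1367 for Pde7a, -0.1051 to 0.0041 for Pde8a, -0.4492 to 0.0391 for Pde10a and -0.0933 to 0.0986 for Rgs2.

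No paired analysis was possible because the groups share no replicate numbers. Adcy1, Adcy5, Adcy8 and Ppargc1a, at an estimated 6 to 69 reads per library, were not tested.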
